A study of Homo sapiens with 4 samples.

Results

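*HOX* genes encode homeodomain transcription factors that give cells their position along the body axis, and adult epithelia and the lines grown from them keep a characteristic set of active *HOX* genes. The genes lie in clusters in the order of their numbers, and genes with the same number in different clusters are paralogues. HOX proteins bind DNA together with TALE homeodomain partners of the PBX, MEIS and PKNOX families. Their genes are held silent by Polycomb proteins, kept active by Trithorax proteins, and switched on by retinoic acid in the embryo.

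The genes described here are 7 genes of the *HOXB* cluster (*HOXB2*, *HOXB3*, *HOXB4*, *HOXB5*, *HOXB6*, *HOXB7* and *HOXB9*) and 3 of the *HOXC* cluster (*HOXC6*, *HOXC9* and *HOXC10*), chosen by symbol. Of these 10 genes, 9 were found among the 16811 genes of the deposited table. The expression of *HOXB5* was not analysed here, and only its transcript sequence was used. MCF12A, a mammary epithelial line of human origin, is not tumorigenic. The wild-type group was unmodified MCF12A. The edited group (labelled C1orf132 KO) was MCF12A in which the p2 promoter of *C1orf132* had been excised with CRISPR/Cas9. Edited cells had been grown as colonies from single sorted cells that expressed Cas9 with GFP, and the sources used here do not say whether both edited libraries came from one colony. All cells grew in the same medium with horse serum, EGF, hydrocortisone, cholera toxin and insulin. Poly(A)-selected RNA of 2 biological replicates per group was sequenced. *C1orf132* itself was not analysed here, and which libraries were edited is known from the labels alone.

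The deposited values are a signal that the authors normalized between libraries. Scaling per transcript length was assumed from a fit in few genes, with no unscaled alternative tried. Levels set side by side between genes, and the read numbers given below, rest on that assumption. The limma test was run on log2(value + 1) over all 16811 genes, and a Benjamini-Hochberg adjusted p under 0.05 counted as past the threshold. Log2 fold changes are edited minus wild-type on this scale, which understates the change of low genes. With 2 libraries in each group the smallest two-sided p of an exact permutation test is 0.333, so the tests of single genes lean on the variance that limma shares across genes. The values of a library summed to between 1444640 and 1655440. Read numbers are estimates from the value that 1 read has on a transcript of 1 kb, which was 0.105 to 0.126, and cover counting error only. Of 20 epithelial markers, which were all listed, 7 were lower and 1 was higher in edited cells past the threshold. Over all genes 3.40% were lower and 1.33% higher past it. The summed value of all 20 was 5658 and 7297 in the edited libraries against 14377 and 25072 in the wild-type libraries. *KRT5* (3514 and 3056 against 4590 and 11914) and *KRT17* (621 and 1738 against 4947 and 5828) held the largest parts. Neither passed the threshold (limma adjusted p = 0.187 and 0.0628). Of 17 mesenchymal and fibroblast markers 10 were listed, of which 3 were higher and 1 was lower. Their summed value was 1099 and 5276 against 1064 and 635. *FN1* alone held 3735 of the 5276 in edited replicate 2. Its value of 171 in edited replicate 1 lay under both wild-type values, 645 and 314 (limma adjusted p = 0.740). *VIM*, 1 of the higher genes, had 824 and 1215 against 257 and 194. Of 8 blood cell markers 2 were listed, of which 1 was lower, and of 8 endothelial markers 0. The part of these markers in the *HOX* values was not tested.

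The locus that was edited hosts miR-29b2 and miR-29c, and the *HOXB* and *HOXC* clusters hold miRNA genes of their own. These mature sequences are shown because their seeds, bases 2 to 8 in capitals, set which *HOX* transcripts carry a match. They are from RefSeq on GRCh38.p14, read 5′ to 3′. The miRNA of *MIR10A* lies inside the span of *HOXB3*, at chr17:48579904-48579926 on the minus strand. *MIR196A1* lies beyond *HOXB9* at chr17:48632532-48632553 on the minus strand, and *MIR196A2* lies between *HOXC10* and *HOXC9* at chr12:53991762-53991783 on the plus strand. Both encode the same mature miR-196a-5p. The miRNAs were not measured in these poly(A) libraries. By a separate TaqMan assay the paper reports miR-29c-3p as reduced in the edited cells.
miR-29b-3p: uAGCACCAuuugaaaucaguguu
miR-29c-3p: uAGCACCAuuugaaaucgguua
miR-10a-5p: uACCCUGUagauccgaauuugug
miR-196a-5p: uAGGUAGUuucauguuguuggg

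The letters TGGTGCT, the match to the seed shared by both miR-29 miRNAs, stood in the canonical 3′ UTR of 0 of the 10 *HOXB* and *HOXC* genes. Among the 11848 listed protein-coding genes with such a UTR, 16.3% held them. The match to miR-10a-5p (ACAGGGT, in 14.3% of these UTRs) stood in *HOXB3*, and the match to miR-196a-5p (ACTACCT, in 7.75%) stood in *HOXB6* and *HOXB7*. Each was found once, on the transcribed strand, and is shown in capitals with its neighbouring bases from GENCODE version 44. A match is a description of the letters and not of binding.
*HOXB3*, bases 860 to 866 of a UTR of 1464 bases: cttaacgtgaaaACAGGGTatatttgaa
*HOXB6*, bases 472 to 478 of a UTR of 662 bases: gaaggagcacatACTACCTagaagtaag
*HOXB7*, bases 221 to 227 of a UTR of 610 bases: cactgaaaaaatACTACCTataggaaag

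None of the 9 genes passed the threshold between edited and wild-type cells (limma, 0 of 9 genes). Over all genes tested, 4.73% passed (1.33% higher and 3.40% lower). At an unadjusted p under 0.05 there were 3 of the 9 genes, *HOXB6* lower and *HOXC9* and *HOXC10* higher, where 29.2% of all genes lay. In 5 of the 9 genes the groups did not overlap, against 61.6% of all genes. Their median log2 fold change was 0.20, that of all genes 0.01. The median size of the difference, regardless of sign, was 0.21 over the 9 genes and 0.40 over all genes. Each gene is given below with its interval, since a p above the threshold does not show that the levels were equal.

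**Figure D1:**
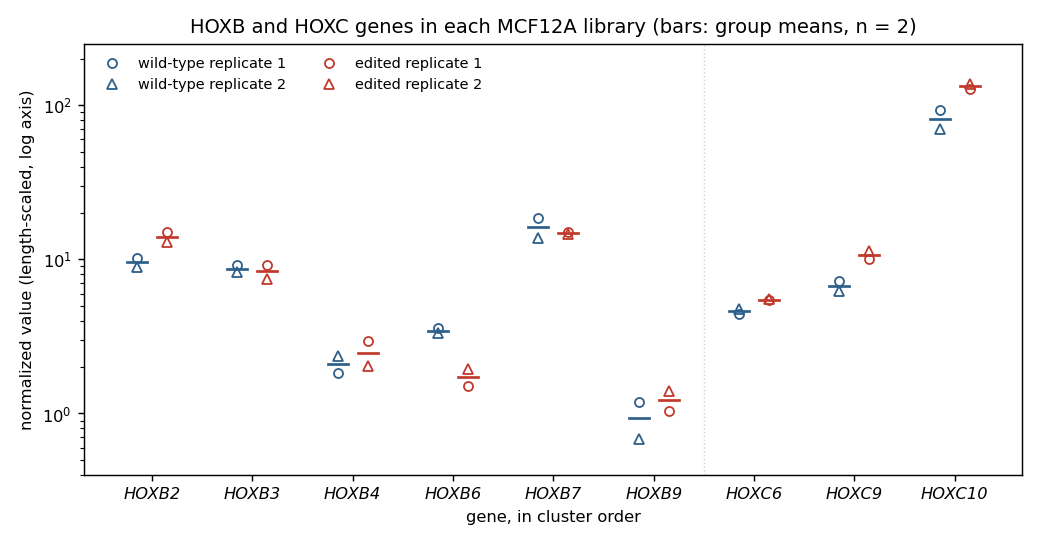
Normalized value (log axis) of the 9 listed *HOXB* and *HOXC* genes in each library, in cluster order, with circles for replicate 1, triangles for replicate 2 and bars for the mean of each group (n = 2). *HOXC10* lies above all the others in each library, and *HOXB6* is the gene whose edited values (1.51 and 1.94) both lie under its wild-type values (3.60 and 3.31).

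The order of the levels was almost the same in all 4 libraries. *HOXC10* was the highest of the 9 genes in each, 5.02 and 5.17 times the next highest gene in wild-type replicates 1 and 2 and 8.53 and 9.41 times in edited replicates 1 and 2. It made up 62.4% and 59.4% of the summed value of the 9 genes in the wild-type and 68.0% and 70.6% in the edited libraries. *HOXB7* and *HOXB2* followed, with *HOXB2* before *HOXB7* in edited replicate 1 by less than the spread between replicates. *HOXB3*, *HOXC9* and *HOXC6* lay in the middle, and *HOXB9* was last in all 4 libraries. Neighbours changed places between the groups at 2 points of the order. *HOXC9* stood under *HOXB3* in both wild-type libraries and above it in both edited libraries. *HOXB6* stood above *HOXB4* in both wild-type libraries and under it in both edited libraries.

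*HOXB2* (ENSG00000173917, chr17:48542655-48545109 on GRCh38.p14), which patterns the hindbrain together with its neighbours at this end of the cluster, had values of 15.0 and 13.02 in edited cells against 10.2 and 8.92 in wild-type cells. Both edited libraries lay above both wild-type libraries, with a gap of 2.80 that exceeds the spread within either group. The edited mean of 14.0 ± 1.40 stood against a wild-type mean of 9.57 ± 0.916 (SD, n = 2 each), from about 129 to 216 estimated reads per library. The log2 fold change of 0.51 (standard error 0.20, 95% interval -0.01 to 1.02) did not pass the threshold (limma adjusted p = 0.177). The span of *HOXB2* overlaps that of the antisense gene *HOXB-AS1*, and the library kit is not stated to keep the strand.

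*HOXB3* (ENSG00000120093, chr17:48548870-48590241), whose span also takes in *HOXB4*, had values of 9.24 and 7.45 in edited cells against 9.14 and 8.24 in wild-type cells. The groups overlapped. Its log2 fold change of -0.06 had little precision (95% interval -0.61 to 0.49, limma adjusted p = 0.891), from 235 to 261 estimated reads per library. The interval leaves room for folds between 0.656 and 1.41 on the value + 1 scale.

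*HOXB4* (ENSG00000182742, chr17:48575507-48578350), known for expanding blood stem cells, was low, at 2.94 and 2.02 in edited cells against 1.84 and 2.36 in wild-type cells. Between 29 and 50 reads were estimated per library. The groups overlapped, and the log2 fold change of 0.16 had a 95% interval from -0.52 to 0.84 (limma adjusted p = 0.739). Without edited replicate 1 it was -0.03, so its sign rests on that library.

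*HOXB6* (ENSG00000108511, chr17:48595751-48604986) was the one gene of the 9 with lower values in both edited libraries than in both wild-type libraries. It had 1.51 and 1.94 in edited cells against 3.60 and 3.31 in wild-type cells, with about 22 and 31 reads estimated against 48 and 48. The edited mean of 1.72 ± 0.305 stood against a wild-type mean of 3.45 ± 0.201 (SD, n = 2 each), a ratio of 0.499. A log2 fold change of -0.71 (standard error 0.24, 95% interval -1.32 to -0.10) did not pass the threshold (limma adjusted p = 0.129). Leaving out single libraries gave between -0.83 and -0.60. *HOXB6* lies inside the span of the antisense gene *HOXB-AS3*, which was not analysed here.

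*HOXB7* (ENSG00000260027, chr17:48607232-48611017), studied in breast cancer for its effects on growth factor genes, had the highest level of the *HOXB* genes in both wild-type libraries. Its values were 15.0 and 14.6 in edited cells against 18.6 and 13.7 in wild-type cells, so both edited values fell between the wild-type ones. With a log2 fold change of -0.10 the threshold was not passed (95% interval -0.66 to 0.46, limma adjusted p = 0.802). It became 0.11 without wild-type replicate 1.

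*HOXB9* (ENSG00000170689, chr17:48621156-48626358), a gene of the posterior part of the cluster, was at 1.04 and 1.40 in edited cells against 1.19 and 0.684 in wild-type cells. Only 15 to 35 reads were estimated per library. The groups overlapped, and the log2 fold change was 0.20 (95% interval -0.51 to 0.92, limma adjusted p = 0.675). Leaving out wild-type replicate 1 gave 0.39 and wild-type replicate 2 gave 0.016, while it was 0.32 if edited replicate 1 was left out and 0.087 if edited replicate 2 was. Folds between 0.700 and 1.90 on the value + 1 scale lie within the 95% interval.

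The *HOXB* genes did not move together. Of the 6 listed, 3 had a positive and 3 a negative log2 fold change, with a median of 0.05. Their summed value was 44.7 and 40.5 in edited cells against 44.5 and 37.2 in wild-type cells, so the groups overlapped.

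The 3 *HOXC* genes were each higher in both edited libraries than in both wild-type libraries, where 31.4% of all genes were (30.2% were lower in both), and none passed the threshold. Their summed value was 144 and 155 in edited cells against 105 and 81.7 in wild-type cells. Without *HOXC10*, which dominates it, the sum was 15.6 and 16.9 against 11.6 and 11.0.

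*HOXC6* (ENSG00000197757, chr12:54016888-54030823), a gene expressed in the mammary gland, had values of 5.49 and 5.49 in edited cells against 4.44 and 4.76 in wild-type cells. The groups were separated by 0.727, but the log2 fold change was small, at 0.21 (standard error 0.21, 95% interval -0.32 to 0.75, limma adjusted p = 0.543). *HOXC4* and *HOXC5* have the same annotated first base as *HOXC6*, and reads of shared exons may have been divided between them.

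*HOXC9* (ENSG00000180806, chr12:54000161-54003337) had values of 10.1 and 11.4 in edited cells against 7.20 and 6.25 in wild-type cells, with roughly 80 to 160 reads. The gap between the groups, 2.90, was larger than the spread of 1.26 and 0.953 within them. The edited mean of 10.7 ± 0.891 stood against a wild-type mean of 6.73 ± 0.674 (SD, n = 2 each). The log2 fold change was 0.60 (standard error 0.21, 95% interval 0.08 to 1.13, limma adjusted p = 0.135). It was between 0.51 and 0.69 when single libraries were left out.

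*HOXC10* (ENSG00000180818, chr12:53985146-53990279), a posterior gene reported as active in breast cancer cells, was the most strongly expressed of the 9, above 84.2% of all genes in the wild-type mean. Its values were 128 and 138 in edited cells against 93.3 and 70.7 in wild-type cells, with roughly 1205 to 2598 reads. The groups were separated by 34.7, more than the spread of 9.73 within the edited and 22.6 within the wild-type group. The edited mean of 133 ± 6.88 stood against a wild-type mean of 82.0 ± 16.0 (SD, n = 2 each), a ratio of 1.62. A log2 fold change of 0.70 was fitted (standard error 0.20, 95% interval 0.18 to 1.22). The adjusted p of 0.101 from limma was the lowest of the 9 genes and above the threshold. Leaving out wild-type replicate 2 gave a log2 fold change of 0.50, and leaving out wild-type replicate 1 gave 0.90.

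**Figure D2:**
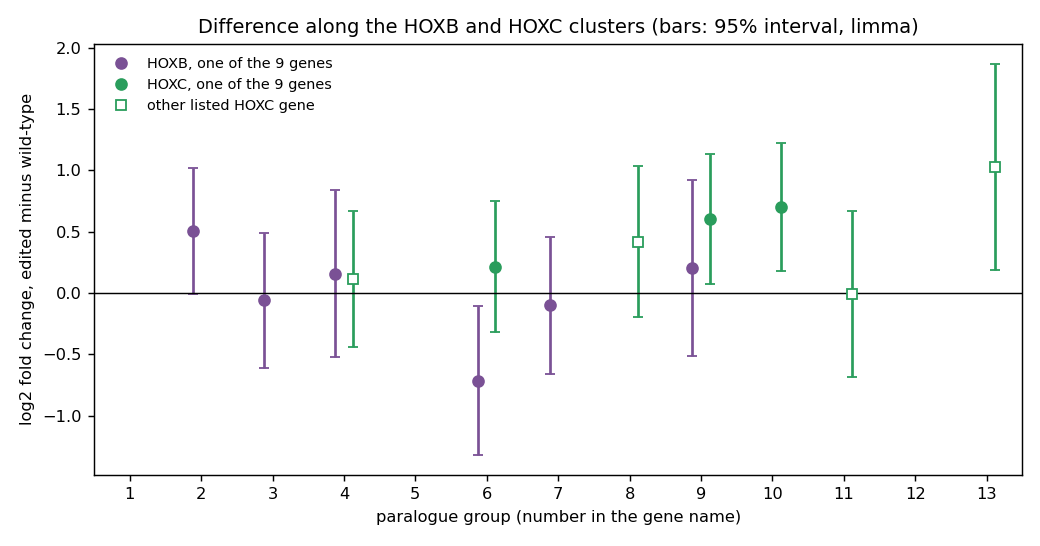
Log2 fold change (edited minus wild-type, log2(value + 1)) with its 95% interval from limma for the 13 listed *HOXB* and *HOXC* genes, by paralogue group. The *HOXC* values run from 0.12 for *HOXC4* to 1.03 for *HOXC13*, with *HOXC11* at -0.01, while the *HOXB* values lie on both sides of 0.

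Paralogues of group 6 had log2 fold changes of opposite sign, and neither passed the threshold. The ratio of *HOXB6* to *HOXC6* within a library, which does not depend on how libraries were scaled, was 0.275 and 0.353 in edited cells against 0.811 and 0.696 in wild-type cells. The groups did not overlap, which was fixed by *HOXB6* being lower and *HOXC6* higher in both edited libraries. The ratio therefore adds no support to those 2 differences, and 2 against 2 libraries cannot reach a permutation p below 0.333. The ratios of *HOXB6* to *HOXB7* and *HOXB4* that follow use the same *HOXB6* values. The ratio of *HOXB6* to *HOXB7*, its nearest listed neighbour, was 0.101 and 0.133 against 0.194 and 0.242, and its ratio to *HOXB4*, the listed neighbour on the other side, was 0.513 and 0.960 against 1.96 and 1.40. For group 9, the ratio of *HOXB9* to *HOXC9* was 0.103 and 0.123 against 0.165 and 0.109, and the groups overlapped.

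Of the 9 remaining genes of both clusters 4 were listed, all in *HOXC*, and 0 passed the threshold (1 at an unadjusted p under 0.05). *HOXC4* was at 8.03 and 6.91 in edited cells against 7.39 and 6.24 in wild-type cells. *HOXC8* was at 2.66 and 2.16 against 1.54 and 1.56, and *HOXC11* at 1.60 and 1.04 against 1.29 and 1.36. *HOXC13*, the gene at the posterior end, which is known from hair and nail, was at 22.9 and 14.2 in edited cells against 10.5 and 6.56 in wild-type cells. Its log2 fold change was 1.03 (standard error 0.33, limma adjusted p = 0.120). Along the cluster, the log2 fold changes of *HOXC4*, *HOXC6*, *HOXC8*, *HOXC9* and *HOXC10* were 0.12, 0.21, 0.42, 0.60 and 0.70, each above the one before, and *HOXC11* at -0.01 did not follow that order. This order was seen in the values and not tested, and each of these intervals overlaps that of its neighbour.

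Noncoding genes of both clusters were matched for 4 of 15 names, and 0 passed the threshold (0 at an unadjusted p under 0.05). All 4 had negative log2 fold changes. *HOTAIR*, the long noncoding RNA transcribed from the opposite strand beside *HOXC11*, was low, at 1.69 and 1.29 in edited cells against 2.12 and 2.29 in wild-type cells (log2 fold change -0.37, limma adjusted p = 0.373). *HOXB-AS1* was at 2.46 and 5.42 against 5.79 and 7.48, a log2 fold change of -0.69 that was opposite in sign to that of *HOXB2* (limma adjusted p = 0.266). *HOXC-AS1* and *HOXC-AS5* had overlapping groups.

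Other *HOX* clusters were set beside these genes for comparison. Of the 10 listed *HOXA* genes 3 passed the threshold, *HOXA7*, *HOXA9* and *HOXA10*, all lower. *HOXA9* was at 0.157 and 1.21 in edited cells against 172 and 148 in wild-type cells. The calls of *HOXA7* and *HOXA10* were lost under several other settings. That of *HOXA9* was lost only without wild-type replicate 1 (limma adjusted p = 0.107) or wild-type replicate 2 (0.175), among the alternatives run at the 0.05 threshold, and its log2 fold change stayed between -8.11 and -4.86. Whether the clusters differ was not tested. None of 9 *HOXD* genes was analysed here.

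TALE partners were listed for 7 of 9 genes, and 0 passed the threshold (2 at an unadjusted p under 0.05). Their median log2 fold change was -0.34, with 5 of 7 below 0. *MEIS3* was at 28.2 and 55.6 in edited cells against 35.5 and 39.8 in wild-type cells, and *PKNOX1* at 19.4 and 18.9 against 23.5 and 16.4. *PBX3* was at 6.43 and 10.4 against 12.8 and 10.5. *MEIS1* was at 3.68 and 4.34 against 7.99 and 11.7, and its log2 fold change of -1.09 did not pass the threshold (limma adjusted p = 0.0738).

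**Figure D3:**
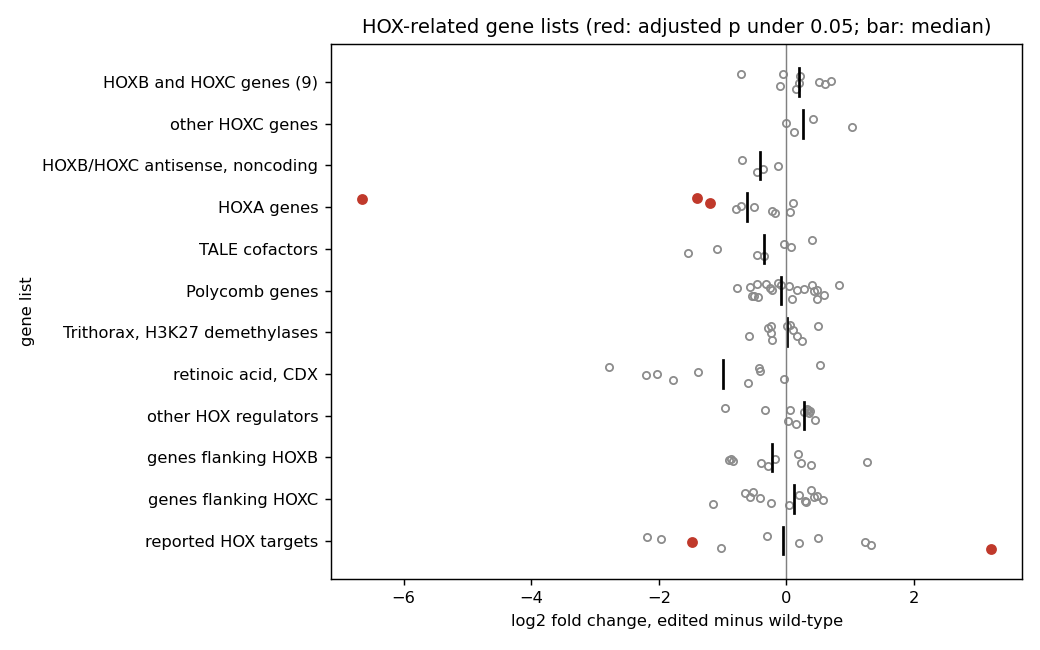
Log2 fold change (edited minus wild-type, log2(value + 1)) of each listed gene, 1 point per gene, in the 9 *HOXB* and *HOXC* genes and in the lists of related genes, with red points past an adjusted p of 0.05 from limma and a bar at each median. The 9 genes lie between -0.71 and 0.70 with 0 of them past the threshold, and red points stand in the *HOXA* genes (3) and the reported targets (2).

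Chromatin regulators of *HOX* genes were compared in lists by function. Of 21 listed Polycomb genes 0 passed the threshold (3 at an unadjusted p under 0.05), with 10 above and 11 below 0 and a median of -0.09. *EZH2*, the methyltransferase of Polycomb complex PRC2, was at 28.0 and 26.6 in edited cells against 29.0 and 31.0 in wild-type cells and was named after its values were seen. *RBBP7* was at 620 and 675 against 512 and 424, *RBBP4* at 289 and 270 against 199 and 213, *PHC2* at 64.8 and 151 against 78.5 and 38.7, and *PHF19* at 104 and 87.4 against 76.3 and 51.7. *JARID2*, a PRC2 cofactor also named after its values were seen, was at 5.46 and 6.17 against 8.88 and 12.6 (log2 fold change -0.77, limma adjusted p = 0.120). Of 11 Trithorax and H3K27 demethylase genes 0 passed the threshold (0 at an unadjusted p under 0.05), with a median of 0.01. *DPY30*, *PSIP1* and *KMT2B* had overlapping groups, and *ASH2L* was at 71.5 and 76.1 against 84.8 and 90.5. Of 11 other regulators, among them *USF1*, *USF2*, *YY1* and *GMNN*, 0 passed the threshold (1 at an unadjusted p under 0.05).

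Genes of the retinoic acid pathway were mostly at lower values in the edited libraries, though 0 of the 10 listed passed the threshold (6 at an unadjusted p under 0.05). The log2 fold change was negative in 9 of 10, with a median of -0.99. *ALDH1A3*, which makes retinoic acid from retinaldehyde, was at 51.3 and 31.0 in edited cells against 234 and 117 in wild-type cells (log2 fold change -2.02, limma adjusted p = 0.0568). *DHRS3*, which reduces retinaldehyde, was at 107 and 113 against 182 and 154 (-0.60, limma adjusted p = 0.105). The receptors *RARG* and *RXRA* were at 41.4 and 39.0 against 49.8 and 57.7, and at 36.6 and 41.5 against 49.7 and 56.8. Of this list, 0 to 3 genes passed under the alternatives run, all of them lower.

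Genes next to the clusters were compared to see whether the region around them moved. Of 10 listed genes that flank *HOXB* on chromosome 17, 0 passed the threshold (4 at an unadjusted p under 0.05), with a median of -0.23. *SKAP1*, the neighbour on the *HOXB1* side, was at 1.06 and 1.29 in edited cells against 3.09 and 2.82 in wild-type cells (log2 fold change -0.87, limma adjusted p = 0.0933). *ATP5G1*, named after its values were seen, had the lowest p of these genes and went the other way, at 512 and 287 against 157 and 162 (log2 fold change 1.26, limma adjusted p = 0.0745). *CALCOCO2*, on the *HOXB13* side, was at 131 and 156 against 187 and 163. Of 14 listed genes that flank *HOXC* on chromosome 12, 0 passed the threshold (3 at an unadjusted p under 0.05), with a median of 0.11. The log2 fold change was above 0 in 8 and below 0 in 6. *ZNF385A*, also named after its values were seen, had the lowest p of these 14. It was at 39.5 and 60.9 against 114 and 107 (log2 fold change -1.16, limma adjusted p = 0.0632). *CALCOCO1*, beside *HOXC13*, was at 28.0 and 80.8 against 82.1 and 69.7, and *SMUG1* and *CBX5*, beyond *HOXC4*, were at 37.9 and 39.0 against 40.0 and 23.8 and at 19.3 and 18.3 against 19.4 and 32.9.

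Genes reported as targets of *HOXB7*, *HOXB9* or *HOXC6* went both ways. Of 10 listed, 1 was higher and 1 was lower past the threshold, with a median of -0.05. *FGF2*, a growth factor gene reported as a target of *HOXB7*, was at 9.17 and 21.7 in edited cells against 0.780 and 0.516 in wild-type cells (log2 fold change 3.21, standard error 0.42, limma adjusted p = 0.0307). *FGFR2*, a receptor gene reported as a target of *HOXC6*, was at 4.70 and 4.27 against 12.98 and 15.8 (-1.48, standard error 0.22, limma adjusted p = 0.0350). Over the same libraries *HOXB7* had overlapping groups. *HOXC6* was higher in both edited libraries, with a 95% interval that includes 0, as does that of *HOXB7*. Whether either gene acts on these targets in these cells was not tested. Both calls were lost with a replicate block, where the adjusted p was 0.0657 for *FGF2* and 0.0744 for *FGFR2*. Leaving out any of the 4 libraries also ended both calls, with limma adjusted p from 0.0503 to 0.225 for *FGF2* and from 0.0902 to 0.225 for *FGFR2*, and both directions stayed.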

How the data were processed

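RNA-seq libraries of MCF12A cells (2 edited, 2 wild-type) were grouped by their titles. The authors deposited 1 table of 16811 genes by symbol with an expression signal per library, scaled between libraries. Scaling for transcript length was assumed. The submitters' processing notes name HISAT2, Salmon and the build hg38; annotation and normalization are not given in the sources used here. Here groups were compared by limma (version 3.58.1, R 4.3.3, eBayes with a variance trend) on log2(value + 1) with no filter and no replicate block, since a filter would drop low genes. The threshold of 0.05 is the general one of the paper's statistics section. For RNA-seq the paper used an adjusted p under 0.001 and reports many genes past it, in both directions. That cutoff is an alternative here and left 0 genes. The 0 belongs to the limma fit used here and does not bear on the paper's count. The fit was tested on simulated data. All sample columns were used.

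The genes and lists were chosen with earlier results of these data known. Named genes are the *HOXB* and *HOXC* genes and, of other lists, those past the threshold, otherwise up to 4 with the highest mean and the flanking genes nearest a cluster; not every gene the rule allows was given values. Depth was estimated per library as the best of many steps tried. The step chosen made the largest share of 36 to 47 low genes with a single transcript whole multiples (up to 6, within 0.02). This held for 5 to 13 genes only and no unscaled alternative was tried. The step itself may therefore be wrong. Read numbers are approximate, and scaling for transcript length is not shown by this step. Transcripts and UTRs came from GENCODE version 44 on GRCh37, and positions from RefSeq on GRCh38.p14. Promoters of the 10 genes were not used here. Python 3.11.15, numpy 2.4.6, pandas 2.3.3 and matplotlib 3.10.9 were used. Alternatives covered pseudocount, filter, scaling, block, variance prior, threshold and leaving out each library.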

Additional observations from a re-analysis of the deposited data

How the results depend on the processing

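Of the 9 *HOXB* and *HOXC* genes 0 passed the threshold under each of the 15 alternatives, although a mean value of at least 10 left 3 of them to test. Of 120 values of single genes under these alternatives, 114 kept their direction and 6 turned it. *HOXB3* reversed to 0.091 with quantile normalization and 0.019 with cyclic loess, to 0.082 without edited replicate 2 and 0.0091 without wild-type replicate 1, and its lowest leave-one-out value was -0.20. *HOXB4* ranged from -0.033 to 0.35 and *HOXB7* from -0.31 to 0.11 with each library left out. The adjusted p of *HOXC10* ranged from 0.0945 to 0.348, that of *HOXC9* from 0.0976 to 0.388 and that of *HOXB6* from 0.106 to 0.409 (limma). With equal library totals the median log2 fold change of all genes was -0.09, against 0.01.

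Over all genes 795 passed, and 517 with a pseudocount of 0.1, 125 with the replicate block, 0 at an adjusted p under 0.001 (4909 at an unadjusted p under 0.05) and 0 to 248 without single libraries; 0 passed without wild-type replicate 1 or without wild-type replicate 2, where a lone wild-type library is assumed to vary like the edited ones. The counts of the *HOXA* genes were 3, then 1 with a pseudocount of 0.1, with quantile normalization and with the replicate block, 0 at 0.001 and 0 to 1 with each library left out. For the retinoic acid list they were 0, then 3 with a mean value of at least 10, 2 with equal library totals and with cyclic loess, 1 with a pseudocount of 5, with quantile normalization and with the replicate block, and 0 to 1 with each library left out. For the reported targets they were 2, then 0 with the replicate block and at 0.001. A mean value of at least 10 left 6 of the targets to test, of which 0 passed, and dropped *FGF2* and *FGFR2* untested. The list of other regulators gave 1 with a mean value of at least 10 and the genes flanking *HOXB* gave 1 with cyclic loess. The same-numbered libraries share a number and no stated origin. The correlation of their deviations from the group means was -0.093, and the replicate block called 0 of the 9 genes. *HOXB4*, *HOXB6* and *HOXB9* rest on 15 to 50 estimated reads per library, the fewest of the 9 genes. The part of depth in their intervals was not tested.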
